A study of Mus musculus with 8 samples.

Results

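The difference between the cold response of brown fat and the cold response of muscle was examined across all probes above background. For each probe it is the log2 cold effect in brown fat (cold minus room temperature) minus the log2 cold effect in muscle, so that a positive value means a higher cold effect in brown fat. Of the 24607 probes on the array, 11946 were above background (detection p under 0.05) on both arrays of some group and were tested, and they represent 8561 named genes. The samples were brown adipose tissue and quadriceps muscle of C57BL/6J mice on a chow diet of 4.5% fat and 50% carbohydrate, with 2 arrays in each of 4 groups. The cold groups had been kept at 4 °C for 4 h, without food or bedding after a night with free access to food, and the control groups at room temperature, called warm below. Whether the control mice also went without food and bedding is not stated in the labels, nor are sex, age, the number of mice behind an array or whether both tissues came from the same mice. All 8 arrays entered every value below unless stated otherwise.

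Brown fat is an organ of non-shivering heat production. Noradrenaline from sympathetic nerves acts on beta-adrenergic receptors of the brown adipocyte, cyclic AMP rises, stored fat is broken down, and the coactivator Ppargc1a and the uncoupling protein Ucp1 serve the burning of fuel for heat. Skeletal muscle makes heat by shivering and, when food is withheld, turns from glucose to fatty acids, with FoxO transcription factors, glucocorticoids and the kinase Pdk4 taking part in the switch.

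The first principal component held 85.9% of the variance and separated the tissues, the second held 6.12% and ran from warm to cold arrays in each tissue, replicates correlated at 0.977 to 0.996 across probes, and 10468 to 11280 probes were above background per array. The arrays labelled brown fat carried high brown adipocyte marker levels (list median 11.74 to 12.06 on the log2 intensity scale) and those labelled muscle high skeletal muscle marker levels (14.54 to 14.60). A pair of cold arrays stood apart. Among the brown fat arrays, the skeletal muscle list had a median of 10.84 and 11.29 at room temperature and 11.34 on the cold array of replicate 2, with 18 of 19 tested markers above background on each, and 5.66 on the cold array of replicate 1, with 8 of 19. Its summed share of the array's signal was 0.566% to 0.703% on the first 3 of these arrays and 0.0159% on the last. Among the muscle arrays, the brown adipocyte list (8 tested) had a median of 5.66 and 5.88 at room temperature, 6.49 on the cold array of replicate 1 and 8.22 on the cold array of replicate 2. The adipocyte list (9 tested) moved in the same order, at 7.31, 7.58, 7.81 and 10.51, with a summed share of the signal of 0.135% to 0.187% on the first 3 and 0.395% on the last. Ucp1 itself read 6.16 and 5.90 in muscle at room temperature and 9.15 and 14.45 in the cold, while all brown fat arrays read 14.41 to 14.68. Acta1, the skeletal muscle actin, read 13.84, 14.24 and 14.16 on 3 brown fat arrays and 6.54 on the cold array of replicate 1. Tissue from the neighbouring organ in a sample and a change of expression within cells cannot be told apart in such bulk samples, and neither can fewer cells of a type and less RNA per cell. Values without brown fat cold replicate 1 and muscle cold replicate 2, called the 2 arrays that stood apart below, are therefore given beside the results that rest on them. Each cold group is then a lone array, so such a fit measures no spread among cold arrays. Its adjusted p-values assume that cold arrays vary like warm ones and give no replicated support.

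**Figure D1:**
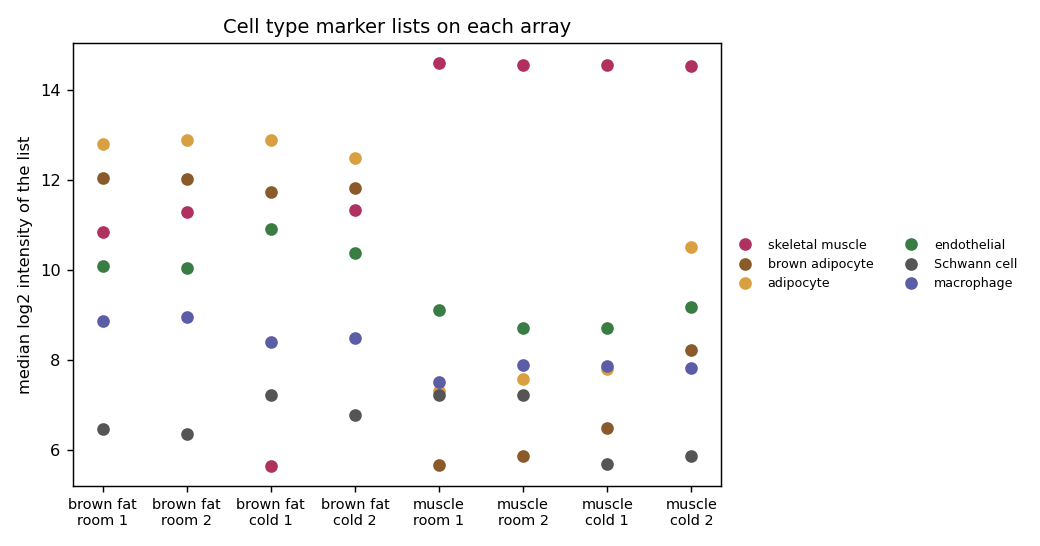
Median log2 intensity of 6 cell type marker lists (vertical axis) on each of the 8 arrays (horizontal axis), 1 point per list and array. Skeletal muscle markers lie at 10.84 to 11.34 on 3 brown fat arrays and at 5.66 on the cold array of replicate 1, and adipocyte markers at 7.31 to 7.81 on 3 muscle arrays and at 10.51 on the cold array of replicate 2.

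The cold effect differed between the tissues at 400 of 11946 probes, which is 3.35% (limma, Benjamini-Hochberg adjusted p under 0.05). It was higher in brown fat at 195 probes (1.63%) and lower at 205 (1.72%), a nearly even split. At an unadjusted p under 0.05 there were 2757 such probes. The called differences ran from 0.70 to 4.45 log2 units in size with a median of 1.16, against a median standard error (SE) of 0.20 over all probes and a median difference of 0.04. By comparison, the cold effect itself passed at 1825 probes in brown fat (15.3%; 930 rose and 895 fell) and at 410 in muscle (3.43%; 186, or 1.56%, rose and 224 fell). Most called differences came from probes at which 1 tissue passed and the other did not. Among those higher in brown fat, 144 rose in brown fat, 34 fell in muscle, 7 did both and 10 passed in neither tissue. Among those lower in brown fat, 140 fell in brown fat, 44 rose in muscle, 5 did both, 7 fell in both tissues but more in brown fat, 4 rose in both but more in muscle, and 5 passed in neither.

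The number of calls depended strongly on single arrays, since each group has 2. Without 1 room temperature array at a time, 5 to 13 probes were higher and 7 to 19 lower. Without brown fat cold replicate 1 the counts were 42 and 53, and without replicate 2 they were 169 and 226. Without muscle cold replicate 1 they were 257 and 565, and without replicate 2 they were 88 and 155. Without both arrays that stood apart, 76 probes were higher and 145 lower, a share of 34.4% higher against 48.8% with all arrays, and 141 of the 400 were called again. None of the 400 changed sign there, and 253 (104 higher and 149 lower) had a difference of at least 1 log2 unit in that fit, whatever their size with all arrays. Median scaling in place of quantile normalization gave 11 higher and 36 lower, a share of 23.4% higher. Called with all arrays and again in each of the 8 fits that left 1 array out were 3 higher probes, those of Lamb3, E2f2 and a probe with no gene name, and 5 lower ones, those of Adcy9, Arrdc2, Hoxa4, Slc40a1 and Phlda1.

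Of the 400 probes, 338 were above background in both tissues, close to the share among all tested probes (9786 of 11946), 37 in brown fat and not in muscle, and 25 in muscle and not in brown fat. Across the tested probes the 2 cold effects had a Pearson correlation of 0.23, given as a description, since probes of 1 array set are not independent replicates.

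**Figure D2:**
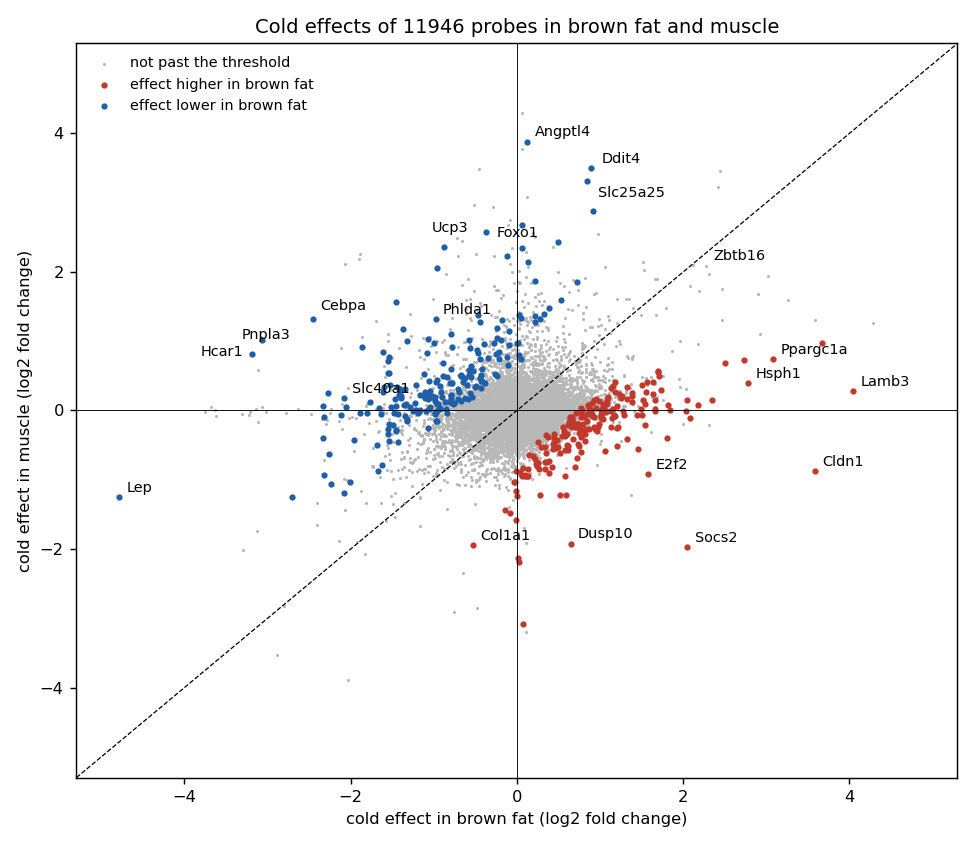
Cold effect in muscle (vertical axis, log2 fold change) against cold effect in brown fat (horizontal axis, log2 fold change) for the 11946 tested probes, with the dashed line marking equal effects. The 195 probes with a higher effect in brown fat (red) lie below the line and the 205 with a lower effect (blue) above it.

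Some genes went in opposite directions, rising in 1 tissue and falling in the other with both cold effects past the threshold. There were 12 such probes, 7 that rose in brown fat and fell in muscle and 5 that did the reverse, and the difference between tissues passed at all 12. Socs2, a suppressor of cytokine signalling that damps growth hormone signals through STAT5, read 9.37 and 8.66 in warm brown fat, 10.95 and 11.18 in cold brown fat, 9.98 and 10.97 in warm muscle and 8.39 and 8.61 in cold muscle. The arrays of the warm and cold groups did not overlap in either tissue, and the tissue with the higher level changed with temperature. It rose by 2.05 log2 units in brown fat and fell by 1.97 in muscle, a difference of 4.02 (SE 0.49, adjusted p = 0.016).

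Dusp10, a phosphatase that switches off the stress kinases JNK and p38, read 7.08 and 7.10 in warm brown fat, 7.96 and 7.52 in cold brown fat, 8.83 and 9.09 in warm muscle and 7.07 and 7.0 in cold muscle. Muscle was well above brown fat at room temperature and below it in the cold. The difference was 2.57 (SE 0.23, adjusted p = 0.00969), and a second probe of Dusp10 also passed in both tissues, with a difference of 1.74. E2f2, a transcription factor of the cell cycle, read 7.27 and 7.0 in warm brown fat, 8.62 and 8.81 in cold brown fat, 8.71 and 8.71 in warm muscle and 7.77 and 7.81 in cold muscle. Its replicates lay close together, the difference was 2.50 (SE 0.18, adjusted p = 0.00752), and the call held when any 1 array was left out.

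Cyclin D1 (Ccnd1), which carries cells into the cell cycle, rose by 0.77 in brown fat and fell by 0.61 in muscle, a difference of 1.38 (SE 0.15, adjusted p = 0.0151). Its 2 further probes had differences of 1.72 and 1.65, both past the threshold. They rose in brown fat, and their muscle effects of -0.52 and -0.59 did not pass. Josd2, a deubiquitinase, moved less, with a rise of 0.49 and a fall of 0.53 (difference 1.02, adjusted p = 0.0201; 0.99 without the 2 arrays that stood apart, adjusted p = 0.0625).

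In the other direction, Phlda1, a pleckstrin homology-like domain gene, read 8.84 and 8.71 in warm brown fat, 7.85 and 7.76 in cold brown fat, 7.97 and 8.03 in warm muscle and 9.26 and 9.37 in cold muscle. Each tissue in the cold stood near or beyond the room temperature level of the other, and no groups of 1 tissue overlapped. The difference was -2.29 (SE 0.15, adjusted p = 0.00752) and held when any 1 array was left out. Glb1l2, a galactosidase-like gene (fell by 1.37 in brown fat, rose by 1.18 in muscle), Gsn, the actin-severing protein gelsolin (fell by 1.08, rose by 0.84), and Nudt18, a nudix hydrolase of oxidised nucleotides (fell by 0.45, rose by 1.28), had differences of -2.55, -1.92 and -1.72, with adjusted p of 0.0151, 0.0112 and 0.0112.

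**Figure D3:**
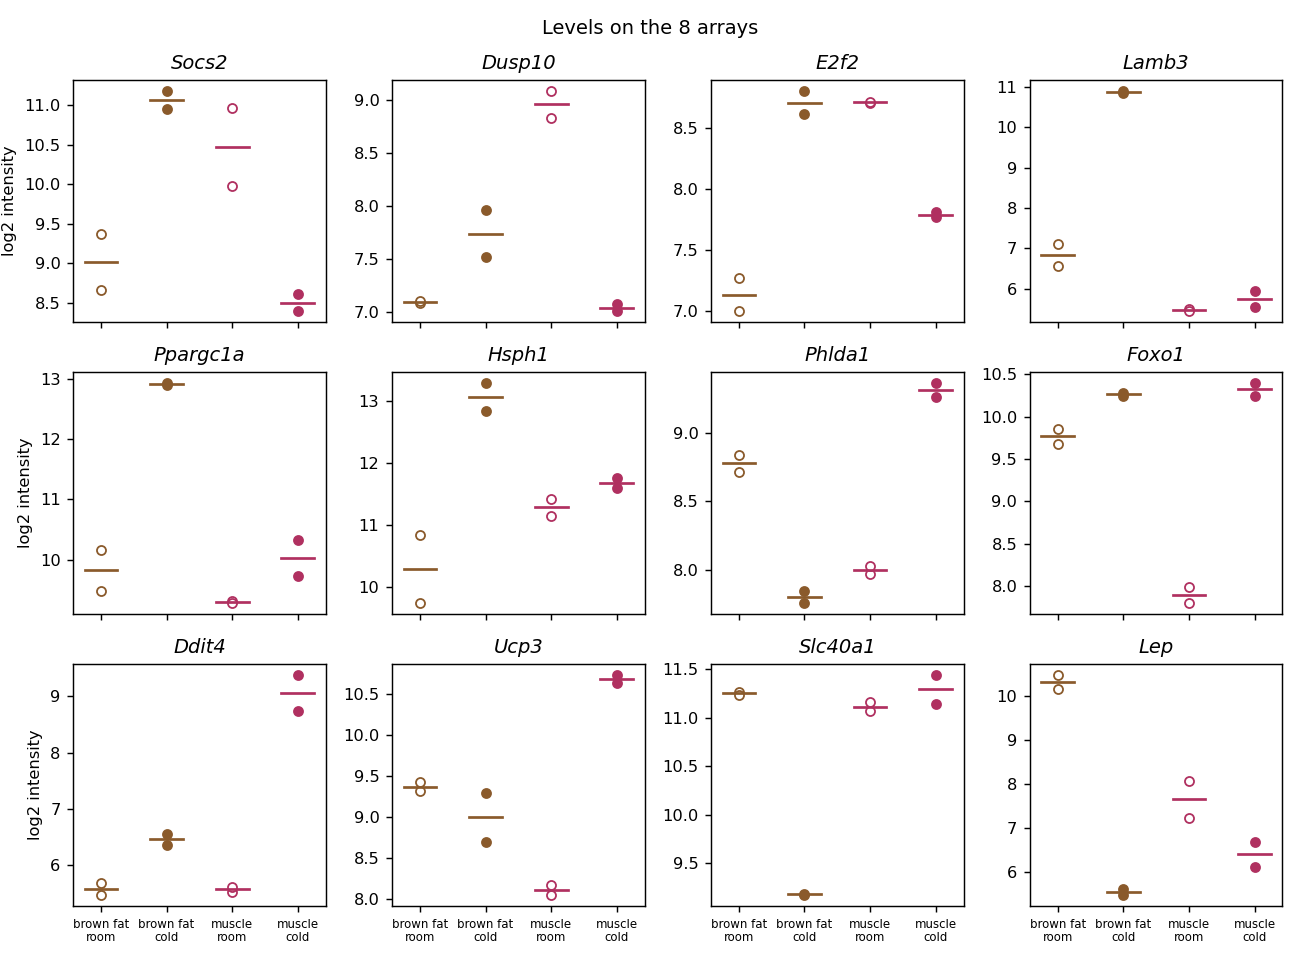
Log2 intensity (vertical axis, a separate scale in each panel) of 12 genes on the 8 arrays, by tissue and temperature, with open points for room temperature, filled points for cold and a line at the mean of 2 arrays. Socs2, Dusp10 and E2f2 rise in brown fat and fall in muscle, Phlda1 does the reverse, and Foxo1, Ddit4 and Ucp3 reach their largest rise in muscle.

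Cldn1 and Lamb3, genes of cell junctions and basement membrane, rose in brown fat and not in muscle. Cldn1, a claudin of tight junctions, read 6.03 and 6.18 in warm brown fat, 10.45 and 8.93 in cold brown fat, 7.10 and 7.31 in warm muscle and 6.23 and 6.43 in cold muscle. Both cold brown fat arrays stood above all others, although they differed from each other by more than the warm ones did. The difference was 4.45 (SE 0.59, adjusted p = 0.0201), and 3.79 without the 2 arrays that stood apart. The rise in brown fat was 3.58, and the muscle effect of -0.87 did not pass. Lamb3, a laminin beta chain, read 7.10 and 6.56 in warm brown fat, 10.84 and 10.90 in cold brown fat, and between 5.44 and 5.95 on the muscle arrays, where it was above background on 1 of 4. The difference was 3.76 (SE 0.28, adjusted p = 0.00752). Of the 22 tested members of the matrix and junction list, 3 passed as higher in brown fat and none as lower, and the median difference was 0.26 against 0.04 over all 8561 named genes. In brown fat 2 of the 22 rose, Cldn1 and Lamb3, and 3 fell, and the third call, Col1a1, came from a fall in muscle. Of all named genes 3.63% passed, 1.75% as higher and 1.88% as lower. This list and those below were drawn up with earlier results of these data known. Their counts of calls may in part reflect that choice. The other laminin chains did not pass, with values such as 0.20 for Lama3, -0.50 for Lamc1 and 0.61 for Lamb2.

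Ppargc1a, the coactivator of mitochondrial and thermogenic genes, read 9.49 and 10.17 in warm brown fat, 12.93 and 12.89 in cold brown fat, 9.31 and 9.28 in warm muscle and 9.73 and 10.33 in cold muscle. Warm levels of the tissues lay close together, the cold brown fat arrays stood far above the rest, and the cold muscle arrays lay slightly above the warm ones. It rose by 3.08 in brown fat, the muscle effect of 0.74 did not pass, and the difference was 2.35 (SE 0.36, adjusted p = 0.027). Perm1, a muscle regulator induced by Ppargc1a and oestrogen-related receptors, rose by 2.08 in brown fat to 12.55 and 12.42, a level that muscle held at both temperatures (12.34 and 12.28 warm, 12.51 and 11.90 cold). Its difference was 2.18 (SE 0.28, adjusted p = 0.0195). P4ha1, the catalytic subunit of collagen prolyl hydroxylase, rose by 2.17 in brown fat, from 7.94 and 8.47 to 10.40 and 10.36, and read 8.94 to 9.03 on the muscle arrays (difference 2.10, SE 0.24, adjusted p = 0.0151).

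Several further genes were not well above background on some or all muscle arrays. Tectb, the beta-tectorin known from the inner ear, rose from 6.82 and 6.60 to 9.21 and 8.89 in brown fat and was not well above background on any muscle array (difference 2.19, adjusted p = 0.0151). Ttpa, the transfer protein of vitamin E, was not well above background in warm brown fat or on any muscle array and read 6.93 and 7.81 in cold brown fat, at least 3.45-fold higher than at room temperature (difference 2.04, adjusted p = 0.0367). Ripk4, a kinase, rose from 6.64 and 6.88 to 9.35 and 9.62 in brown fat and read 5.15 to 6.11 in muscle, above background on both cold arrays and on neither warm one, where its effect of 0.73 did not pass (difference 2.00, adjusted p = 0.016). For a gene not above background in a muscle group, the muscle side of the difference has no measured level, and the fitted difference is not a bound.

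Heat shock genes formed the list with the most calls on the higher side. Of 15 tested members, 6 had a higher cold effect in brown fat and none a lower one (1.75% and 1.88% of named genes). The median difference was 1.08 (0.86 without the 2 arrays that stood apart). In brown fat 11 of the 15 rose (8.15% of named genes rose there) and in muscle 0 rose or fell, with 1 at an unadjusted p under 0.05 (limma). Hsph1, a large chaperone of the Hsp110 family, read 9.74 and 10.84 in warm brown fat, 13.30 and 12.85 in cold brown fat, 11.15 and 11.43 in warm muscle and 11.77 and 11.59 in cold muscle. Brown fat moved from below to above the muscle level, and the muscle groups, which did not overlap, lay close together. The difference was 2.39 (SE 0.48, adjusted p = 0.0471; 2.08 without the 2 arrays, adjusted p = 0.119).

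The Hsp90 system made up most of the rest. Hsp90aa1, the inducible Hsp90 chaperone, read 5.98 and 5.88 in warm and 8.76 and 8.10 in cold brown fat, against 5.14 to 5.90 in muscle (difference 1.82, SE 0.29, adjusted p = 0.0281). In muscle Hsp90aa1 was above background on both cold arrays and on neither warm one. Its muscle effect of 0.69 did not pass and has no measured warm level. Its co-chaperones Ahsa1 (1.47, adjusted p = 0.0201), Chordc1 (1.44, adjusted p = 0.0172) and Stip1 (1.44, adjusted p = 0.0372) passed as well, as did Bag3, a co-chaperone of Hsp70 (1.08, adjusted p = 0.0464). Chordc1 read 11.06 and 11.28 in warm and 12.83 and 12.60 in cold brown fat, while the 4 muscle arrays lay between 11.63 and 11.77. Hspb1, a small heat shock protein abundant in muscle, had a difference of 1.62 that did not pass (adjusted p = 0.0613), and Cryab one of -0.48. Without the 2 arrays the differences were 1.40 for Hsp90aa1, 1.31 for Chordc1, 1.36 for Ahsa1, 1.21 for Stip1 and 0.86 for Bag3, each smaller than with all arrays.

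Promoters of heat shock genes are known for the heat shock element, repeats of a GAA unit in alternating orientation that heat shock factor binds. The letters GAANNTTCNNGAA were searched on both strands of RefSeq promoter windows (assembly GRCm38.p6, 250 bases before to 50 after the gene start). They occurred in 3 of 13 heat shock list genes with a window (23.1%), namely Chordc1, Hsph1 and Hspd1, in 3 of 132 genes with a called higher difference (2.27%), in 2 of 137 with a called lower one (1.46%), in 42 of 6972 tested genes (0.602%) and in 0.662% of all 27025 windows. For this search and the next, a gene counted as called if any of its tested probes was called. Chordc1 and Hsph1 of the heat shock list are also among the 3 higher genes, and the other was Mga. Hspd1 had a difference of 0.29 that did not pass. The windows of Hsph1 and Chordc1 are shown because both genes passed and hold the letters, with the matched bases in capitals. They are Hsph1 at chr5:149636287-149636586 on the minus strand, where the match begins 36 bases after the gene start, and Chordc1 at chr9:18292017-18292316 on the plus strand, where 3 overlapping matches begin 4 bases before to 6 bases after it.
Hsph1: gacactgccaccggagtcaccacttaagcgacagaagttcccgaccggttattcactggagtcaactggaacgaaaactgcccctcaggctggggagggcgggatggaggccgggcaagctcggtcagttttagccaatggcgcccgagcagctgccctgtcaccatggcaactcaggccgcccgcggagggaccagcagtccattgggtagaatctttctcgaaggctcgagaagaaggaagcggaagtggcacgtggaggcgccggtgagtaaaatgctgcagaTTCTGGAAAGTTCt
Chordc1: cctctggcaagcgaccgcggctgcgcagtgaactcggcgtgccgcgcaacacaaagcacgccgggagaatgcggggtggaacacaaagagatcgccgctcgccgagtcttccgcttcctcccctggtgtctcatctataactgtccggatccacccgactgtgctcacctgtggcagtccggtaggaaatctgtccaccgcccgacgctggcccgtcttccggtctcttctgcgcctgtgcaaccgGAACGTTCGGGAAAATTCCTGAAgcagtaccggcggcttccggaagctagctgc
A match of letters is a description of the sequence, and binding was not measured.

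Cyclic AMP responsive and early response genes did not share 1 direction. Of 18 tested members, 2 passed as higher (Ppargc1a and Maff) and 1 as lower (Hcar1), against 1.75% and 1.88% of named genes. The median was -0.55. In brown fat 8 rose and 2 fell (8.15% and 8.14% of named genes), and in muscle 7 rose (1.61% of named genes). Genes such as Pde4d, a cyclic AMP phosphodiesterase (rose by 2.31 in brown fat and 1.98 in muscle, difference 0.33, adjusted p = 0.517), and Crem, a cyclic AMP responsive modulator (0.81 and 0.94), rose in both tissues. Maff, a small Maf transcription factor, read 6.72 and 6.65 in warm and 8.58 and 8.18 in cold brown fat, and 6.83 and 6.64 in warm and 7.24 and 7.33 in cold muscle. It rose in brown fat by 1.70, the muscle effect of 0.55 did not pass although its groups did not overlap, and the difference was 1.15 (adjusted p = 0.0421; 0.99 without the 2 arrays, adjusted p = 0.0724). The cyclic AMP response element TGACGTCA, which reads the same on both strands, was in 11 of 132 genes with a called higher difference (8.33%) and in 4 of 137 with a called lower one (2.92%), against 3.53% of tested genes and 2.03% of all windows. The window of Maff, at chr15:79347270-79347569 on the plus strand, is shown as the called member of the list that holds it, 29 bases before the gene start, in capitals.
Maff: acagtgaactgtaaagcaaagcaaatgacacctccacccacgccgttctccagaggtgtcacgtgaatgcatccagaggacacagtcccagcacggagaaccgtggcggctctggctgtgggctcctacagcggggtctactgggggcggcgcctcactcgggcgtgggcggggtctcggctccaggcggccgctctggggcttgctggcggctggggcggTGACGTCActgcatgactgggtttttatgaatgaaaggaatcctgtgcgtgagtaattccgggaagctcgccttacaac
In the cyclic AMP list, 2 of 14 genes with a window held the element, and the other one was Dusp1.

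Among 14 tested thermogenesis genes, Ppargc1a alone passed, and the median was -0.05 (0.29 without the 2 arrays). Dio2, the deiodinase that makes active thyroid hormone, rose by 2.93 in brown fat. In muscle it was not well above background at room temperature or on cold replicate 1, and read 7.35 on cold replicate 2, the array with brown fat transcripts. Its difference was 1.83 (adjusted p = 0.253) and without the 2 arrays 2.62. Ucp1 had a difference of -5.68 (adjusted p = 0.148), the most negative value in the list, with 0.09 in brown fat and 5.77 in muscle, neither of which passed. Without the 2 arrays the difference of Ucp1 was -3.17. The raw signal of Ucp1 in brown fat was 66.6% of the array maximum when warm and 72.8% in the cold. Whether the scale limited a rise there was not tested. On muscle cold replicate 1 the brown adipocyte list median was also higher than in warm muscle (6.49 against 5.66 and 5.88). The part of brown fat transcripts in the muscle value was not tested.

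Falls in muscle that brown fat did not match gave a further 34 higher probes. Col1a1, the main chain of collagen I, read 9.34 and 9.43 in warm muscle and 7.35 and 7.52 in cold muscle, and 8.64 and 8.51 in warm and 7.79 and 8.30 in cold brown fat. It fell by 1.95 in muscle, the brown fat effect of -0.53 did not pass, and the difference was 1.41 (SE 0.25, adjusted p = 0.0367). Tnfaip2, induced by tumour necrosis factor, fell by 1.47 in muscle from 8.92 and 9.34 to 7.59 and 7.71 and was above background on 1 of 4 brown fat arrays (difference 1.39, adjusted p = 0.0324). Trib2, a tribbles pseudokinase, read 9.05 and 9.61 in warm and 8.14 and 8.08 in cold muscle, and 8.18 and 8.20 in warm and 8.83 and 8.73 in cold brown fat. Cold muscle thus reached the warm brown fat level (difference 1.81, SE 0.25, adjusted p = 0.0201). Mc5r, a melanocortin receptor, fell by 1.22 in muscle and was at background in warm brown fat (difference 1.5, adjusted p = 0.0381). Without the 2 arrays the differences were 1.75 for Col1a1, 1.74 for Mc5r, 1.46 for Tnfaip2 and 1.71 for Trib2.

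Some Schwann cell markers fell in muscle as well. Their list median was 7.23 and 7.22 in warm and 5.70 and 5.87 in cold muscle, and 6.47 and 6.36 in warm and 7.22 and 6.78 in cold brown fat. With 5 tested markers this median is the value of 1 gene, Sox10 on the muscle arrays and S100b on the brown fat arrays. The other muscle effects were -0.99 for Mbp, -0.94 for Mag, -0.24 for Pmp22 and 0.14 for S100b, and the last 2 did not pass. Of 5 tested markers, all had a difference above 0 (0.44 to 1.30) and 1 passed. S100b (0.44) was not above background on any muscle array, so its difference had no measured muscle side. In muscle 3 fell (2.15% of named genes fell there), and in brown fat 2, Pmp22 and S100b, rose, by 0.71 and 0.59 (8.15% of named genes rose there). Sox10, the transcription factor of Schwann cells, read 7.23 and 7.22 in warm and 5.70 and 5.87 in cold muscle, and 5.93 to 6.14 in brown fat. Its difference was 1.30 (SE 0.15, adjusted p = 0.0152) and 1.37 without the 2 arrays. The myelin genes Mbp (1.17, adjusted p = 0.0712) and Mag (0.84, adjusted p = 0.131) fell in muscle, Mag by at least 1.65-fold to a level not well above background. Mag was not above background on any brown fat array. Fibroblast markers had a list median of 7.66 and 8.02 in warm and 7.09 and 7.02 in cold muscle, and of 8 tested, Col1a1 passed as higher and none as lower. The part of these cell types in the muscle falls was not tested.

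Cytokine feedback genes gave 1 higher and 1 lower call among 15 tested (1.75% and 1.88% of named genes), with a median of -0.24. Besides Socs2, Stat5a, a transcription factor downstream of growth hormone and prolactin receptors, read 9.82 and 10.02 in warm and 7.56 and 7.62 in cold brown fat, and 7.56 and 7.43 in warm and 6.88 and 7.33 in cold muscle. It fell by 2.33 in brown fat to the warm muscle level, and the difference was -1.94 (SE 0.23, adjusted p = 0.0159). Socs3 fell by 2.86 in muscle (7.88 and 9.13 to 5.70 and 5.58), the brown fat effect was -0.48, and the difference of 2.38 missed the threshold (adjusted p = 0.0584). Cish, a further STAT5-induced inhibitor, fell in both tissues, by 2.04 in brown fat and 3.89 in muscle, and its warm replicates were more than 1 log2 unit apart in each tissue (difference 1.85, adjusted p = 0.202).

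On the lower side, genes of the fat cell led the falls in brown fat for which the muscle effect did not pass. Lep, which encodes the satiety hormone leptin, read 10.49 and 10.16 in warm brown fat and 5.47 and 5.61 in the cold, where it was not well above background, a fall of at least 26.6-fold. In muscle it read 7.23 and 8.07 warm and 6.68 and 6.12 cold, lower in the cold on both arrays, with an effect of -1.25 that did not pass. The difference was -3.53 (SE 0.42, adjusted p = 0.016) and -3.76 without the 2 arrays. Pnpla3, a lipid droplet hydrolase driven by feeding, read 12.01 and 11.79 in warm and 8.47 and 8.97 in cold brown fat, and 5.85, 6.98, 7.19 and 7.28 on the muscle arrays. Its difference was -4.01 (SE 0.49, adjusted p = 0.016). Without the 2 arrays it was -3.71.

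Hcar1, the lactate receptor that restrains lipolysis, read 8.79 and 9.45 in warm and 6.12 and 6.00 in cold brown fat. In muscle it was not well above background except on cold replicate 2, at 7.08, the array on which adipocyte markers were high. Its difference was -4.08 with all arrays (SE 0.71, adjusted p = 0.0358) and -3.28 without the 2 that stood apart. Cebpa, a master transcription factor of adipocytes, fell from 10.06 and 10.96 to 7.94 and 8.17 in brown fat. It was not well above background in warm muscle and read 5.91 and 7.56 in the cold, the second on the same array. The difference was -3.77 (adjusted p = 0.0431) and -2.85 without the 2. The transferrin gene Trf (-3.02 and, without the 2, -2.31), the sulfotransferase Chst1 (-2.78 and -2.22), Negr1 (-2.45 and -1.83) and the neuronatin gene Nnat (-2.30 and -2.0) had falls of 1.45 to 1.86 in brown fat, and each was higher on muscle cold replicate 2 than on replicate 1. The part of the adipocyte transcripts of that array in these differences was not tested. Of the 4, Nnat no longer passed without the 2 arrays (adjusted p = 0.0724).

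Of 11 tested genes of the adipokine and white fat list, 4 passed as lower (Hcar1, Pnpla3, Lep and Nnat) and none as higher. Of all named genes, 1.88% passed as lower and 1.75% as higher. The median of the adipokine and white fat list was -2.30 and, without the 2 arrays, -1.73. The brown fat transcription factors gave 3 lower calls of 13 (Cebpa, Irf4 and Cebpb) and a median of -0.76. The marker lists of adipocytes and brown adipocytes had medians of -1.51 and -1.71, and of -0.80 and -0.74 without the 2 arrays. None of their 9 and 8 tested members passed, and 4 and 3 had an unadjusted p under 0.05 (limma). The skeletal muscle marker list had a median of -2.26 with all arrays and of 0.20 without the 2, and of its 19 tested members 0 passed and 0 had an unadjusted p under 0.05.

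Slc40a1, Adcy9 and Hoxa4 fell in brown fat and were above background on all muscle arrays. Slc40a1, the iron exporter ferroportin, read 11.27 and 11.24 in warm and 9.19 and 9.17 in cold brown fat, and 11.07 and 11.16 in warm and 11.44 and 11.14 in cold muscle. The warm levels of the tissues lay close together, and cold brown fat stood apart from the 3 other groups. It fell by 2.07 in brown fat, the muscle effect of 0.18 did not pass, and the difference was -2.25 (SE 0.18, adjusted p = 0.00752; -2.40 without the 2 arrays). Adcy9, an adenylyl cyclase that makes cyclic AMP, read 9.32 and 9.23 in warm and 7.54 and 7.47 in cold brown fat, while muscle stayed between 9.91 and 10.14 (difference -1.90, SE 0.15, adjusted p = 0.00752). Hoxa4, a homeobox gene of body position, fell by 1.54 in brown fat and had an effect of 0.54 in muscle that did not pass (difference -2.08, adjusted p = 0.00752). Klhdc7a, a kelch domain gene, fell by 2.27 in brown fat and was above background on 1 of 4 muscle arrays (difference -2.52, adjusted p = 0.0114).

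Rises in muscle that brown fat did not match, or matched in part, made up the other large class. Slc25a25, a mitochondrial carrier of ATP-Mg and phosphate, read 7.70 and 8.28 in warm and 11.42 and 11.20 in cold muscle, and 6.34 and 6.18 in warm and 7.20 and 7.01 in cold brown fat. It rose in both tissues, by 3.32 in muscle and 0.85 in brown fat, and the difference was -2.47 (SE 0.28, adjusted p = 0.0151). Ddit4, the stress-induced brake on mTORC1, was not well above background in warm muscle and read 9.39 and 8.74 in the cold, at least 10.5-fold higher. In brown fat it read 5.67 and 5.47 warm and 6.56 and 6.35 cold, a rise of 0.89. The difference was -2.61 (SE 0.30, adjusted p = 0.0151).

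Foxo1, the FoxO transcription factor of the fasting response, read 7.99 and 7.80 in warm and 10.40 and 10.25 in cold muscle, against 9.68 and 9.85 in warm and 10.25 and 10.28 in cold brown fat. Muscle started well below brown fat and reached the same level in the cold. The rises were 2.43 and 0.50, and the difference was -1.94 (SE 0.17, adjusted p = 0.00969). Pdk4, the kinase that shuts pyruvate out of the mitochondrial citric acid cycle, rose by 1.85 in muscle and 0.72 in brown fat, to 14.33 and 14.35 and to 14.66 and 14.67 (difference -1.14, adjusted p = 0.048; -1.13 without the 2 arrays, adjusted p = 0.115). The raw signal of Pdk4 rose from 47.9% to 76.3% of the array maximum in brown fat, and whether the scale limited this rise was not tested. In the FoxO and atrophy list, 3 of 14 passed as lower (Ddit4, Foxo1 and Pdk4) and none as higher (1.88% and 1.75% of named genes). The atrophy ligases Fbxo32 (-1.33) and Trim63 (-1.10) did not pass, and had -0.65 and -0.25 without the 2 arrays.

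Ucp3, the uncoupling protein of muscle mitochondria, read 8.17 and 8.04 in warm and 10.73 and 10.63 in cold muscle, and 9.42 and 9.31 in warm and 9.29 and 8.70 in cold brown fat. It rose by 2.57 in muscle, the brown fat effect of -0.37 did not pass, and the order of the tissues turned with temperature (difference -2.95, SE 0.27, adjusted p = 0.00969; a second probe -2.62, adjusted p = 0.0201). Of 17 tested genes of fatty acid oxidation, Ucp3 and Pdk4 passed as lower and none as higher (1.88% and 1.75% of named genes). Their median was -0.39. Among genes of the beta-oxidation route, Acadvl (-0.24) and Cpt1b (-0.16) did not pass. The raw signal of Acadvl was 72.0% of the array maximum in warm brown fat. The probe of Hadha (0.17) was not above background on any muscle array, so it measured no muscle effect. Arrdc2, an arrestin domain gene, rose by 2.14 in muscle, from 6.71 and 6.64 to 8.89 and 8.75, and was above background on 1 of 4 brown fat arrays (difference -2.01, SE 0.17, adjusted p = 0.00752).

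Mt1, a metallothionein that binds zinc and copper, read 11.08 and 11.31 in warm and 13.34 and 13.75 in cold muscle and 14.64 to 14.75 on all brown fat arrays (difference -2.29, adjusted p = 0.0112). Its raw signal in brown fat was 76.8% of the array maximum when warm and 82.0% in the cold, and whether the scale limited a rise there was not tested. Its neighbour Mt2, measured at a lower intensity, rose in both, by 1.11 in brown fat and 1.31 in muscle (difference -0.20, adjusted p = 0.542). Cebpb, a transcription factor of stress and adipogenesis, rose by 1.48 in muscle and had an effect of 0.39 in brown fat (difference -1.09, adjusted p = 0.0281). Acacb, the acetyl-CoA carboxylase that restrains fatty acid entry into mitochondria, was at least 2.15-fold higher in cold than in warm muscle (difference -1.07, adjusted p = 0.0277), and Plin4, a lipid droplet coat gene, rose by 1.32 in muscle (difference -1.05, adjusted p = 0.0463; -0.83 without the 2 arrays, adjusted p = 0.0817).

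Other muscle rises were larger on the array with adipocyte transcripts. Angptl4, a fasting-induced inhibitor of lipoprotein lipase, read 6.36 and 6.81 in warm muscle, 9.63 on cold replicate 1 and 11.31 on cold replicate 2, and 12.20 to 12.68 in brown fat. The difference was -3.76 (SE 0.69, adjusted p = 0.0392) and -3.01 without the 2 arrays, and a second, dimmer probe had -0.81 (adjusted p = 0.275). Irf4, a transcription factor that brown adipocytes use with Ppargc1a, read 5.63 and 5.68 in warm and 8.13 and 8.96 in cold muscle (difference -1.97, adjusted p = 0.0494; -1.66 without the 2, adjusted p = 0.0633). The glutathione transferase Gsta3 (-3.03 and, without the 2, -2.30) and Ifi27l2a (-3.23 and -2.41) rose in muscle and passed with all arrays. On cold replicate 1 alone they read 8.75 and 11.54, against at most 7.34 and 10.13 in warm muscle.

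Among the 16 pathway lists, the lipid storage and synthesis list had the lowest median after the adipokines, -1.31 over 28 tested genes with 4 lower calls and none higher, and -0.56 without the 2 arrays. Most members did not pass (of named genes, 1.88% passed as lower). Fasn, fatty acid synthase, read 8.0 and 8.37 in warm muscle and 9.48 and 12.37 in cold muscle (difference -2.82, adjusted p = 0.184; -1.37 without the 2). Cidec, a lipid droplet protein of adipocytes, read 8.61 and 8.89 warm and 10.50 and 12.93 cold (-3.48, adjusted p = 0.0904; -2.35 without the 2). In both the muscle cold arrays were above the warm ones and more than 2 log2 units apart, in the order of the adipocyte marker medians.

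**Figure D4:**
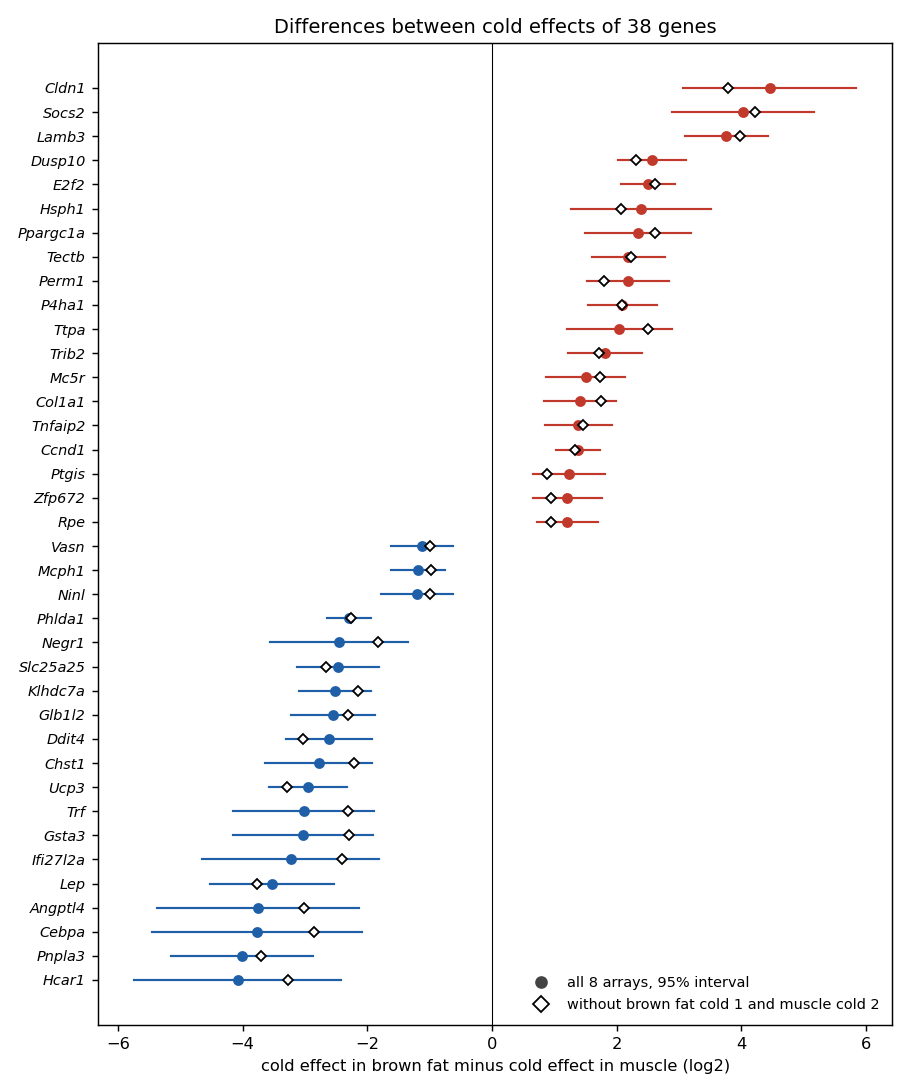
Difference between the cold effects (brown fat minus muscle, log2, horizontal axis) of 38 named genes, as circles with 95% intervals from all 8 arrays and as diamonds without the 2 arrays that stood apart. Hcar1, Cebpa and Angptl4 lie closer to 0 without these arrays (-3.28, -2.85 and -3.01), while Socs2, Lamb3, Ucp3 and Ddit4 lie farther from it.

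Among clock genes, Per3 and Dbp fell in both tissues and more in brown fat. Per3, a period gene, read 8.23 and 8.63 in warm and 5.78 and 5.66 in cold brown fat, and 7.48 and 7.49 in warm and 6.23 and 6.24 in cold muscle. It fell by 2.71 and by 1.25 (difference -1.45, SE 0.20, adjusted p = 0.0209). In cold brown fat Per3 was above background on 1 of 2 arrays, so its level there was poorly measured. Dbp, a clock-controlled transcription factor, fell by 2.23 in brown fat and by 1.06 in muscle (difference -1.17, adjusted p = 0.0389; -1.21 without the 2 arrays, adjusted p = 0.0776). Cry2, a cryptochrome of the clock's negative limb, fell by 0.67 in brown fat and had an effect of 0.49 in muscle that did not pass (difference -1.16, adjusted p = 0.0255). Of 13 tested clock genes these 3 passed as lower and none as higher (1.88% and 1.75% of named genes), and the median was -0.41. Per1 rose in both tissues, by 0.79 and 1.31 (difference -0.53, adjusted p = 0.0904). Aplnr, the apelin receptor of vessels, also fell in both, by 2.08 and 1.19 (difference -0.89, adjusted p = 0.0392; without the 2 arrays adjusted p = 0.0997), and was the sole call among 13 tested genes of vessel growth. Aplnr read 5.81 to 5.83 on the cold arrays of both tissues, near the lowest detected signals of the cold arrays (5.42 to 5.71). Whether this floor set the size of either fall, and so of the difference, was not tested. The times of day at which tissues were taken are not stated in the labels.

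Glucocorticoid targets rose in both tissues, 12 of 19 in brown fat and 13 of 19 in muscle (8.15% and 1.61% of named genes rose). The difference passed as lower for 4 (Angptl4, Ddit4, Mt1 and Pdk4) and as higher for none (1.88% and 1.75% of named genes), with a median of -0.31. Fkbp5, a co-chaperone of the glucocorticoid receptor, rose by 1.69 and 1.90 (difference -0.21, 95% interval -1.12 to 0.70), and Depp1, a FoxO and hormone target, by 2.45 and 3.46 (difference -1.01, -2.35 to 0.33). Cdkn1a, the cell cycle inhibitor p21, rose by 3.26 in brown fat and 1.60 in muscle, and the difference of 1.66 did not pass (adjusted p = 0.0848). In the growth arrest and stress list 2 of 17 passed as higher (Ripk4 and Ccnd1) and 1 as lower (Ddit4), with a median of 0.05. Of named genes, 1.75% passed as higher and 1.88% as lower. The list was drawn up with earlier results of these data known, so these counts may in part reflect its choice.

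Interferon-inducible genes fell without a called difference between tissues. In brown fat 14 of 21 fell and in muscle 5 (8.14% and 2.15% of named genes fell). The muscle effect had an unadjusted p under 0.05 for 15 of the 21 (limma). The median effect was -1.65 in brown fat and -1.19 in muscle, and the median difference was -0.27. The difference passed for 0 of the 21 (limma) and had an unadjusted p under 0.05 for 1. The immunity-related GTPases Igtp and Irgm2 fell in brown fat by 3.29 and 3.13. Irgm2 read 12.06 and 9.97 in warm brown fat, 8.26 and 7.5 in cold brown fat, 10.86 and 10.80 in warm muscle and 9.16 and 9.03 in cold muscle. Its warm brown fat arrays were more than 2 log2 units apart, so that the difference of -1.39 had an interval of -3.37 to 0.58, and that of Igtp (-1.27) one of -3.40 to 0.85. Gbp3 (-2.80 in brown fat and -2.82 in muscle), Irf1 (-1.93 and -1.90) and the checkpoint ligand gene Cd274 (-2.89 and -3.53) fell in both tissues, with intervals of the difference that reached beyond 1 log2 unit. Glucose metabolism gave 0 calls among 20 tested genes (limma; 5 at an unadjusted p under 0.05; median -0.11), and its most negative values, Pgam2 (-2.65) and Eno3 (-2.26), were 0.34 and 0.28 without the 2 arrays.

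**Figure D5:**
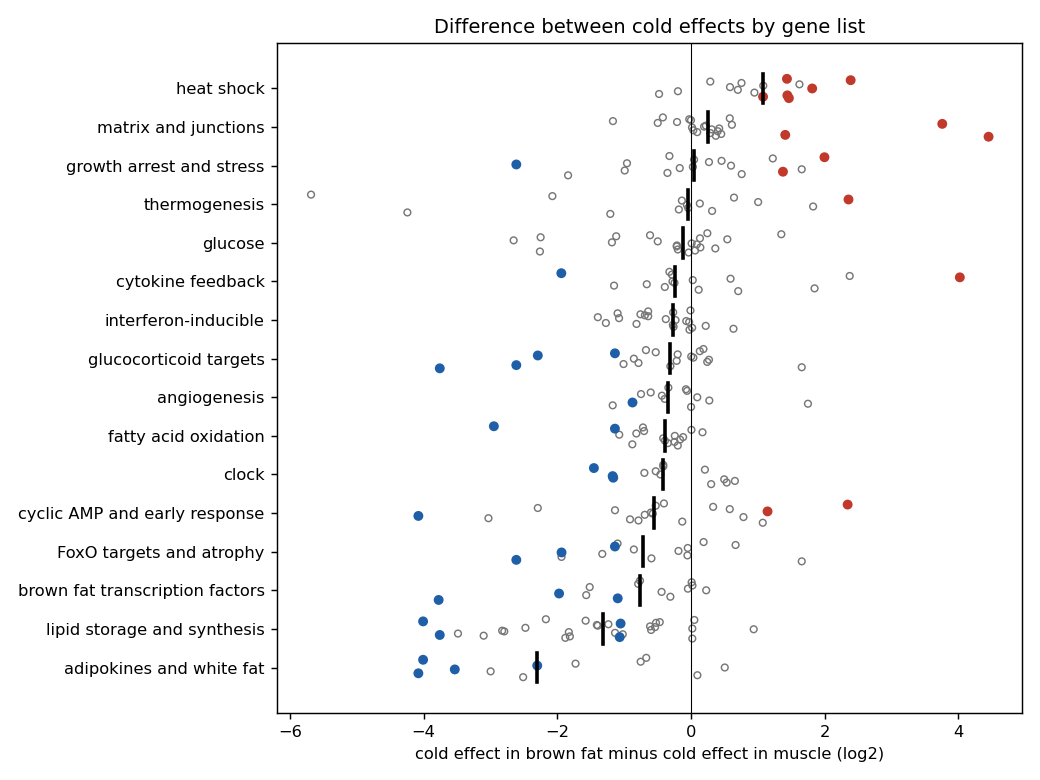
Difference between the cold effects (brown fat minus muscle, log2, horizontal axis) of the tested members of 16 gene lists, 1 point per gene, filled red where higher and filled blue where lower past the threshold, with a bar at the list median. Heat shock lies at the top with a median of 1.08 and 6 higher calls, and adipokines at the bottom with -2.30 and 4 lower calls.

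For some genes the difference between the cold effects was bounded within 1 log2 unit. Of 135 probes that passed the same way in both tissues (58 rose and 77 fell), 11 had a called difference. In 93 of them the 95% interval of the difference lay within 1 log2 unit of 0 (35 rose and 58 fell). It did so for 8643 of all 11946 tested probes, so the share was not higher among the 135. Such an interval need not include 0, as for Per1 (-0.86 to -0.19). Zbtb16, the zinc finger transcription factor in the series title, was among the 93, with a difference of 0.19 (-0.40 to 0.77, adjusted p = 0.689) and 0.04 without the 2 arrays. The transporter gene of antigen peptides Tap2 fell by 1.58 in brown fat and 1.59 in muscle (difference 0.01, -0.47 to 0.49). Sdc4, a cell surface proteoglycan, rose by 1.5 and 1.38 (0.12, -0.49 to 0.72), and the amino acid transporter Slc7a8 by 1.39 and 1.48 (-0.08, -0.87 to 0.70). The antiviral gene Bst2 fell by 1.36 and 1.34 (-0.02, -0.90 to 0.86), and the lipoprotein receptor Scarb1 by 1.17 and 1.25 (0.08, -0.51 to 0.67). The chemokine Ccl9 rose by 1.31 and 1.60 (-0.29, -0.76 to 0.18), and Sik1, a salt-inducible kinase of the cyclic AMP list, by 1.21 and 1.61 (-0.40, -0.87 to 0.06).

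Some calls rested on the arrays that stood apart. Of 278 called differences of at least 1 log2 unit, 39 were smaller than 1 without these 2 arrays. The largest of them were Ptgis, prostacyclin synthase (1.23, and 0.89 without them), Zfp672 (1.21 and 0.95) and Rpe, an enzyme of the pentose phosphate pathway (1.21 and 0.95), on the higher side. On the lower side they were Ninl (-1.20 and -0.99), Mcph1 (-1.19 and -0.98) and Vasn (-1.12 and -0.99). The 6 genes did not pass without these arrays. Agreement between probes could be checked for 47 called genes with several tested probes, of which 42 had all other probes on the same side of 0 and 14 had another probe past the threshold.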

How the data were processed

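Signals of 1-colour Illumina bead arrays were used for 8 samples. Per the file headers, the deposited table holds 1 intensity per probe and array on a linear scale, judged from its values to have neither background subtraction nor scaling between arrays (array medians 87.3 to 98.1). Beside it stands a deposited detection score that rises with the signal, and 1 minus this score was taken as the detection p. The authors' processed intensity values, of which 32.8% lie below 0, served as an alternative. The software, the normalization and the genome build of the authors were not given in the sources used here. Per the labels' protocols, total RNA was extracted with TRIzol, amplified from oligo-dT and labelled with biotin.

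In R 4.3.3 with limma 3.58.1, intensities were corrected with normexp from negative control values inferred from detection p, raised by an offset of 16, quantile normalized over 8 arrays and converted to log2. A model of 4 group means was fitted with lmFit and eBayes (4 residual degrees of freedom, 3.24 added by moderation). Benjamini-Hochberg adjustment ran over 11946 probes, with a threshold of 0.05. SEs and 95% intervals are those of this fit. Precision is limited by the small number of arrays. Since separate mice are not stated, a p-value reflects only how far these samples spread, in part perhaps for technical reasons. The fit was tested on simulated data.

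Names came from the platform annotation (20980 probes with 1 symbol, 1 with several, 3626 with none; 20964 of the 20980 matched RefSeq genes of GRCm38.p6). A gene is its tested probe with the highest mean. Where a group was not above background on any array, a bound sets the brighter group's mean against, per array, the higher of the lowest detected signal and the probe's own.

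Members and lists were chosen with earlier results of these data known. Genes named had to pass, and keep their sign and a size of at least 1 without the 2 arrays that stood apart: per direction up to 8 with the brown fat effect past the threshold, up to 4 with the muscle effect and up to 4 with both. Added were the 3 largest per direction that did not keep it, up to 4 called members of each list (or 2 if none passed) and Zbtb16, 61 genes in all. A further 50 were named after their values were seen: those called when any 1 array was left out (Adcy9, Arrdc2, Hoxa4, Slc40a1), with opposite calls, alike in both tissues, and further members of the lists. Overlapping lists are not independent. Alternatives changed normalization, background, offset, filter, moderation, weights, blocks and samples.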

Additional observations from a re-analysis of the deposited data

Results flagged for a closer look

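For 67 named genes the cold effect in brown fat differed from that in muscle by the test of the difference itself (limma, adjusted p under 0.05). The values are log2 differences, brown fat minus muscle, and each came from the 8 arrays.

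The higher values among genes of junctions, matrix and signalling were those of Cldn1 (4.45), Socs2 (4.02), Lamb3 (3.76), Dusp10 (2.57), Tectb (2.19), Ripk4 (2.00), Trib2 (1.81), Mc5r (1.5), Col1a1 (1.41) and Tnfaip2 (1.39). Genes of transcription, the cell cycle and metabolism on this side were E2f2 (2.50), Ppargc1a (2.35), Perm1 (2.18), P4ha1 (2.10), Ttpa (2.04), Ccnd1 (1.38), Ptgis (1.23), Zfp672 (1.21), Rpe (1.21), Maff (1.15), Josd2 (1.02) and the Schwann cell factor Sox10 (1.30). The heat shock genes were Hsph1 (2.39), Hsp90aa1 (1.82), Ahsa1 (1.47), Chordc1 (1.44), Stip1 (1.44) and Bag3 (1.08).

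The lower values among genes of fat and fuel use were those of Hcar1 (-4.08), Pnpla3 (-4.01), Angptl4 (-3.76), Lep (-3.53), Ucp3 (-2.95), Slc25a25 (-2.47), Nnat (-2.30), Pdk4 (-1.14), Acacb (-1.07) and Plin4 (-1.05). Transcription factors and clock genes on this side were Cebpa (-3.77), Hoxa4 (-2.08), Irf4 (-1.97), Stat5a (-1.94), Foxo1 (-1.94), Per3 (-1.45), Dbp (-1.17), Cry2 (-1.16) and Cebpb (-1.09). Genes of stress, iron and other functions were Ifi27l2a (-3.23), Gsta3 (-3.03), Trf (-3.02), Chst1 (-2.78), Ddit4 (-2.61), Glb1l2 (-2.55), Klhdc7a (-2.52), Negr1 (-2.45), Mt1 (-2.29), Phlda1 (-2.29), Slc40a1 (-2.25), Arrdc2 (-2.01), Gsn (-1.92), Adcy9 (-1.90), Nudt18 (-1.72), Ninl (-1.20), Mcph1 (-1.19), Vasn (-1.12), the macrophage marker Cd14 (-1.02) and Aplnr (-0.89).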

How the results depend on the processing

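With 2 arrays per group, the counts of 195 higher and 205 lower probes moved with several choices, and the cause was not tested. Median scaling gave 11 and 36 (23.4% higher against 48.8%), the authors' processed values 82 and 107, and leaving out both brown fat cold replicate 1 and muscle cold replicate 2 gave 76 and 145 (34.4% higher). Leaving out 1 array at a time, a lone array being assumed to vary like the other groups, gave 5 to 257 higher and 7 to 565 lower (26.3% to 46.2% higher). The other 8 alternatives without a block stayed within 1.5 times of both counts. The replicate number as a replicate block over all groups gave 64 and 97 (39.8% higher). With brown fat and muscle arrays of the same temperature and number treated as 1 animal, the block left 0 and 0 calls, with 2317 probes at an unadjusted p under 0.05 (limma), and 0 and 0 with 2480 where the muscle cold numbers, on which the label fields disagree, were exchanged. No label says that numbers pair samples. Deviations of same-numbered arrays correlated at -0.12 to 0.16 between groups. Between brown fat and muscle of the same temperature the correlations were -0.07 (warm) and -0.12 (cold). With 2 arrays per group a deviation is 1 difference between replicates, so these values cannot show whether samples were paired. Of 67 named genes past the threshold, 0 kept the call in all 22 alternatives, 17 lost it in at most 5, and none reversed. Many of these genes had been chosen for keeping their sign and size without the 2 arrays that stood apart. Adcy9, Arrdc2, Hoxa4 and Slc40a1 had been chosen for passing whenever 1 array was left out. Those fits are among the 22, so the counts were partly set by the choice of genes and do not measure stability. The median difference over all probes moved by less than 0.1 in every alternative run.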

Other observations

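Further marker lists gave few called differences. Macrophage markers had a median of -0.51 over 8 tested genes, and Cd14, the co-receptor for bacterial lipopolysaccharide, passed as lower (-1.02, adjusted p = 0.0463), with a fall of 0.71 in brown fat. Endothelial markers had a median of -0.03 over 12 tested genes, of which 0 passed (limma) and 4 had an unadjusted p under 0.05. Red cell markers (3 tested, median -0.49) and lymphocyte markers (2 tested, median -0.31) gave 0 calls, with 1 and 0 at an unadjusted p under 0.05.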
